A study of Drosophila melanogaster with 8 samples.

Results

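The genes described here are 7 that mark the first steps of bristle formation in the fly: ac (achaete), sc (scute), ase (asense), sens (senseless), sca (scabrous), phyl (phyllopod) and neur (neuralized). They were chosen by symbol, from what is known of their roles and with earlier results of these data known. All 7 had a row among the 18354 gene rows of the table. The values come from RNA sequencing of Drosophila melanogaster wing imaginal discs, the larval epithelia from which the adult wing and thorax form. There were 4 control libraries (nub>mRFP, that is nub-Gal4 driving the red fluorescent protein mRFP) and 4 libraries labelled ecd-RNAi (nub>mRFP; ecd-RNAi), in which the same driver also expressed a hairpin against the splicing factor gene ecd up to dissection. All larvae were wandering and in the third instar, raised at 25 °C, and discs were taken on day 7 after egg laying, 150 to a library. The driver is active in the pouch and hinge of the disc, so the notum, where most large bristles of the thorax arise, lies outside the domain of the hairpin.

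Achaete and Scute are basic helix-loop-helix (bHLH) transcription factors that pair with Daughterless and give small groups of epithelial cells, the proneural clusters, the ability to form a sensory organ. Within a cluster, Notch signalling restricts that fate to a single cell, the sensory organ precursor, which turns on Senseless and Asense, raises its own proneural levels and holds back its neighbours. Late in the larval period such precursors arise in the notum and along the prospective wing margin. Because whole discs were measured, fewer precursor cells and less RNA per cell cannot be told apart.

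The transcript of ecd, measured first to check the labels, was at 1028 ± 25.9 normalized counts in the control group and 1348 ± 114 in the libraries labelled ecd-RNAi (SD, n = 4), so the reads assigned to the targeted gene were higher, not lower, and the groups did not overlap. Each direction given here therefore describes libraries by their label, not by a measured loss of ecd. Whether reads of the hairpin were counted with those of ecd was not tested, so the value may not measure the endogenous transcript alone. The 11 wing disc identity markers were all detected, nub itself at 11480 ± 517 and 10580 ± 284. Deposited values summed to between 27.4 and 37.9 M normalized counts per library, and ribosomal RNA took 48.9% to 52.9% of them in the control group and 26.6% to 35.2% in the libraries labelled ecd-RNAi. A gene was tested when its mean over the libraries reached 10 normalized counts, and of 9380 such genes 2970 were lower and 2889 higher at an adjusted p under 0.05 (limma on log2(value + 1), Benjamini-Hochberg), which is 31.7% and 30.8%. That split became 3691 lower and 2285 higher when each library was recentred on its median. The median log2 fold change of all tested genes was 0.00.

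Of the 7 genes, 5 were lower in the libraries labelled ecd-RNAi, 1 was higher and 1 did not pass. Of all tested genes 62.5% were called in either direction, so a call by itself sets none of the 7 apart. The groups did not overlap for 5 of the 7, against 57.2% of all tested genes. The sizes differed widely. sens kept 14.1% and ase 24.7% of the control mean, whereas ac, sc and sca kept between 72.6% and 79.1%.

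**Figure D1:**
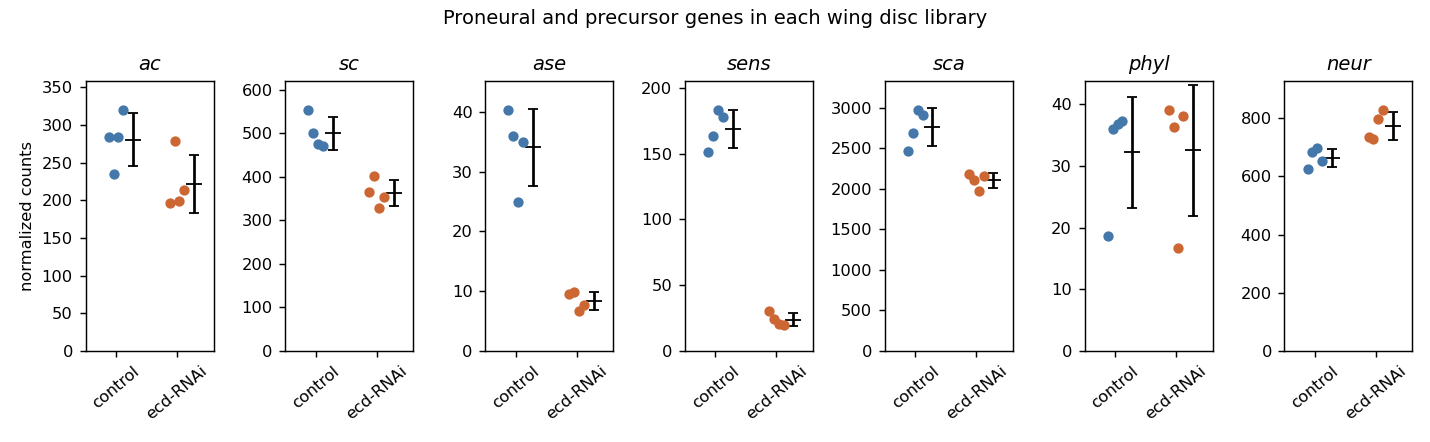
Normalized counts of the 7 genes in each library (vertical axes, from 0; 4 control libraries in blue and 4 labelled ecd-RNAi in orange), with the group mean and SD as black bars. The groups are far apart for sens and ase, close for ac, sc, sca and neur, and share their range for phyl, where 1 library of each group lies low.

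Among the proneural genes proper, ac (FBgn0000022, X:370031-370947, plus strand, a single exon) was at 284.1, 234.9, 283.7 and 320.0 normalized counts across control replicates 1 to 4. In the libraries labelled ecd-RNAi, in the same order, it was at 197.0, 278.4, 198.8 and 213.6. The groups overlapped through ecd-RNAi replicate 2, which was above control replicate 2. The log2 fold change of ac was -0.34 (SE 0.13, limma with Benjamini-Hochberg adjusted p = 0.0393). This call hung on single libraries: it was lost on leaving out replicate 1, 3 or 4 of either group, with adjusted p between 0.0747 and 0.108. It was also lost in the authors' deposited table, where the adjusted p of ac was 0.0533; over the alternatives tried its adjusted p ran from 0.00511 to 0.108.

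sc (FBgn0004170, X:396060-397497, plus strand, a single exon) was at 553.3, 500.0, 474.1 and 470.1 normalized counts in controls and at 365.6, 400.6, 329.3 and 353.9 in libraries labelled ecd-RNAi. Every library labelled ecd-RNAi was below every control. It fell by 0.46 on the log2 scale (SE 0.08, limma adjusted p = 0.000437), a mean 1.38-fold lower.

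Asense, a bHLH factor of the same family that comes on in the precursor after the choice has been made rather than in the cluster, was among the scarce members, near phyl in controls. ase (FBgn0000137, X:460747-463176, plus strand, a single exon) was at 40.34, 35.95, 24.97 and 34.96 normalized counts in controls and at 9.55, 9.81, 6.65 and 7.65 in libraries labelled ecd-RNAi. The groups lay well apart, the highest library labelled ecd-RNAi being below the lowest control. It fell by 1.89 on the log2 scale (SE 0.26, limma adjusted p = 0.000111), 4.05-fold between the means. Its mean in the libraries labelled ecd-RNAi, 8.4, was itself below the 10 normalized counts asked of a tested gene. ase thus entered the test only through its control libraries, a limit on its adjusted p, its rank and its pair tests.

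Senseless is a zinc finger factor that works with the proneural proteins and is needed in the precursor itself, and in the wing disc it marks both single precursors and rows of cells beside the margin. sens (FBgn0002573, 3L:13396228-13401125, minus strand) was at 151.2, 163.2, 183.2 and 178.2 normalized counts in controls. In libraries labelled ecd-RNAi it was at 30.4, 24.5, 20.8 and 19.5. No library came near the other group. The mean was 7.10-fold lower, 168.9 ± 14.6 against 23.8 ± 4.89 (SD, n = 4), and the log2 fold change was -2.79 (95% confidence interval -3.15 to -2.43, limma adjusted p = 2.34e-07). Of the 9380 tested genes, 52 had a lower log2 fold change than sens, and ase stood at position 133 from the lowest.

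Scabrous is a secreted protein, related to fibrinogen, that is released by precursors and acts in the spacing of sensory organs. sca (FBgn0003326, 2R:12780541-12802010, plus strand) was the most abundant of the 7, at 2469, 2692, 2974 and 2916 normalized counts in controls and 2184, 2112, 1978 and 2162 in libraries labelled ecd-RNAi. The groups did not overlap. The gene fell by 0.39 on the log2 scale (SE 0.06, limma adjusted p = 0.000285), 1.31-fold between the means. An antisense RNA gene on the other strand, asRNA:CR45137, shares 394 of its 3796 exonic bases and was listed at 0 in all 8 libraries.

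Phyllopod is an adaptor that brings the repressor Tramtrack to the ubiquitin ligase Sina, and precursors need it for their fate. phyl (FBgn0013725, 2R:14427336-14432337, minus strand) was at 18.6, 36.0, 36.9 and 37.2 normalized counts in controls and at 39.1, 36.3, 16.6 and 38.1 in libraries labelled ecd-RNAi. In each group 3 libraries lay close together and 1 was low, and the groups overlapped. Its log2 fold change of -0.01 did not pass (limma adjusted p = 0.988), but the 95% confidence interval ran from -0.74 to 0.72, so that a change of the size seen in ac, sc or sca was not detectable with the spread between these libraries. Falls of the size seen in ase or sens lie outside that interval.

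Neuralized is a ubiquitin ligase that makes Delta active in the precursor, the signal that holds back the neighbouring cells. neur (FBgn0002932, 3R:9020348-9039471, minus strand) was at 627.3, 682.9, 696.6 and 653.0 normalized counts in controls and at 734.9, 729.5, 798.1 and 828.8 in libraries labelled ecd-RNAi. All 4 libraries labelled ecd-RNAi were above all controls. It rose by 0.22 on the log2 scale (SE 0.06, limma adjusted p = 0.00781), and the call was lost after recentring on the median (0.12, adjusted p = 0.102; over all alternatives between 0.00676 and 0.102). An antisense RNA gene, asRNA:CR31429, covers 1673 of the 4309 exonic bases of neur and also rose, from 132.9 ± 8.65 to 172.3 ± 11.8 (log2 fold change 0.37, limma adjusted p = 0.00479), though not with quantile normalization (0.11, adjusted p = 0.327). The strand setting of the counting is not given in the sources used here, so the values of neur and of its antisense partner are uncertain.

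Whether the 7 genes changed by different amounts was tested on the log2 ratio of each pair within a library, over 21 pairs. A two-sided exact permutation test of 4 libraries against 4 cannot give a p below 0.0286, and 13 pairs reached that value (adjusted p = 0.0462 over the 21 pairs, Benjamini-Hochberg). All 6 ratios that hold sens were among them. The log2 ratio of sens to sca changed by -2.41, that to phyl by -2.79 and that to neur by -3.01, while the ratio of ac to sens rose by 2.45 and that of sc to sens by 2.33. Against ase the difference was smaller, the log2 ratio of ase to sens going from -2.29 ± 0.40 to -1.39 ± 0.17 (SD, n = 4). The ratio of ac to ase rose by 1.55 and that of sc to ase by 1.43, so ase lost ground to both of its neighbours in the complex. The ratio of sc to neur fell by 0.68 and that of sca to neur by 0.60 on the log2 scale. For ac against sc (change 0.12, exact p = 0.343), ac against sca (0.04) and sc against sca (-0.08, exact p = 0.714) no difference was detected. With quantile normalization 12 pairs reached the smallest p in place of 13. Their shared adjusted p then lies at the threshold of 0.05 itself, so whether any pair passes there rests on rounding.

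**Figure D2:**
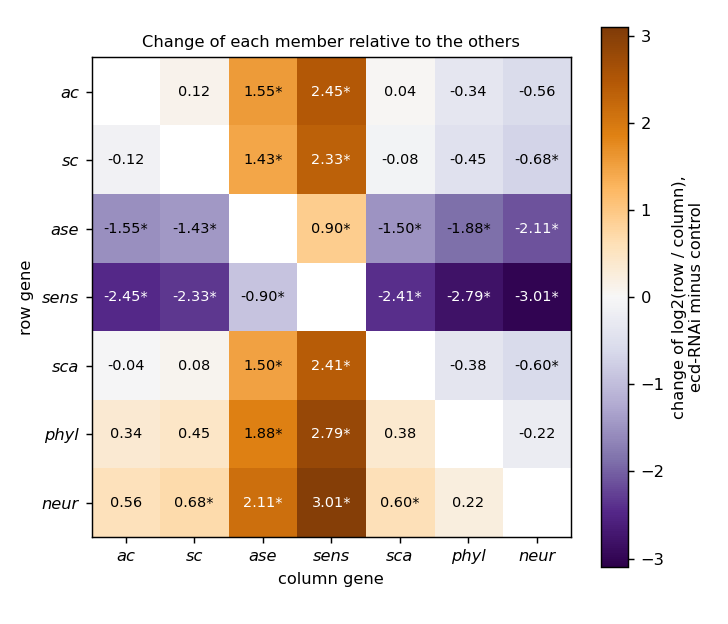
Change of the log2 ratio of the row gene to the column gene, ecd-RNAi minus control, for the 21 pairs of the 7 genes (each pair appears in both directions with opposite sign). Stars mark an adjusted p under 0.05 (exact permutation test); the rows of sens and ase are below 0 against all 5 other genes, down to -3.01 for sens against neur.

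Levels can be compared between genes only per length, here as normalized counts per kilobase of annotated exon. In controls the order was sca (728 ± 60.7 per kb), sc (347 ± 26.6), ac (306 ± 38.1), neur (154 ± 7.20), sens (68.9 ± 5.94), phyl (17.5 ± 4.92) and ase (14.0 ± 2.67; SD, n = 4). Neighbours in that order were separate in every library except sc and ac, and phyl and ase, whose ranges overlapped. In libraries labelled ecd-RNAi the first 4 kept their order, with neur at 179 ± 11.3 per kb. sens went to 9.71 ± 2.00 per kb and below phyl (17.7 ± 5.80), with which its range overlapped, and ase stayed last at 3.46 ± 0.626.

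**Figure D3:**
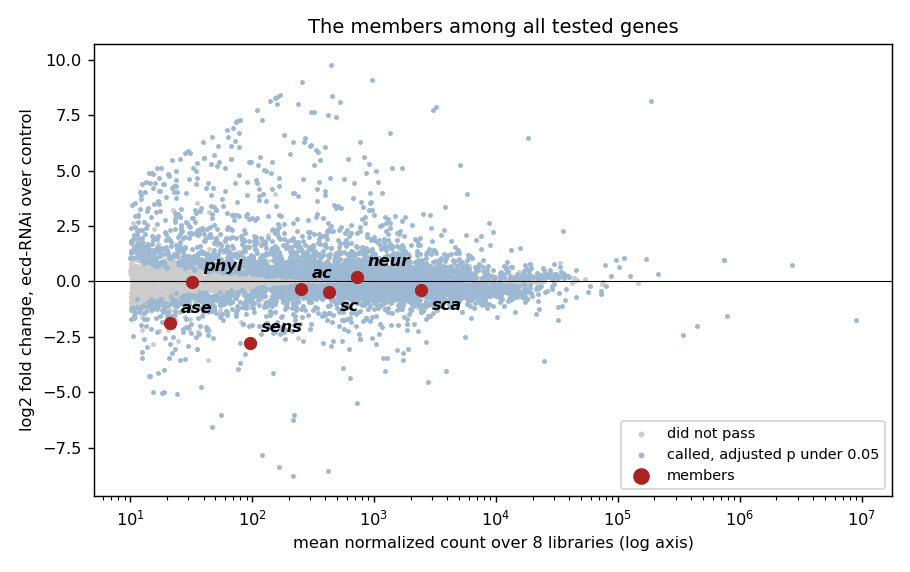
Log2 fold change (ecd-RNAi over control) against the mean normalized count over 8 libraries (log axis) for the 9380 tested genes, those called in blue and those that did not pass in grey, with the 7 genes in red. sens (-2.79) and ase (-1.89) lie low on the plot, and the other 5 lie within the bulk of genes, between -0.46 and 0.22.

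ac, sc and ase are neighbours in the achaete-scute complex of the X chromosome, with a further proneural gene between them, l(1)sc (lethal of scute), which acts mainly in the embryonic nervous system. Measured from the start of ac, sc begins at 26.0 kb, l(1)sc at 39.7 kb and ase at 90.7 kb. l(1)sc was near the level of single reads in all 8 libraries, from 1.19 to 3.58 normalized counts, so no change could be read from it. The non-coding genes between ac and sc stayed at or below 1.19, and Pgcl, between l(1)sc and ase, was listed at 0 throughout. Cyp4g1, which follows ase at 97.0 kb, was at 0 to 3.57 in the control group and 2.55 to 13.9 in the libraries labelled ecd-RNAi. The complex lies within the span of CG32816 on the other strand, which shares no exonic base with the 3 members and did not pass (96.4 ± 36.1 and 107.1 ± 45.0, limma adjusted p = 0.708).

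**Figure D4:**
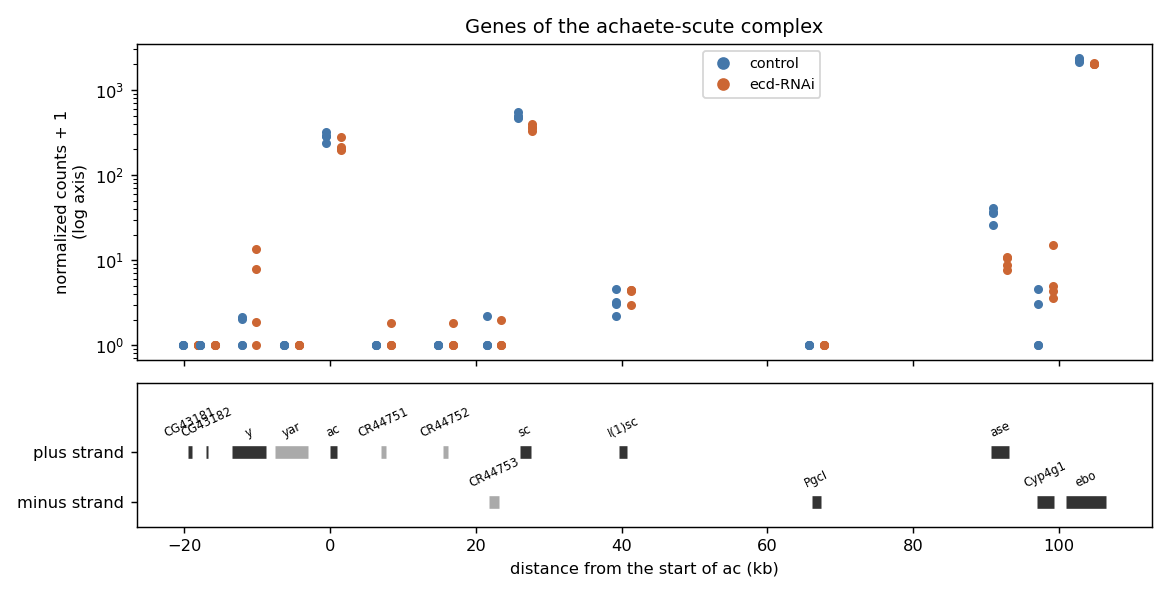
Upper panel, normalized counts plus 1 (log axis) of each gene of the achaete-scute complex in the 4 control libraries (blue) and the 4 labelled ecd-RNAi (orange); lower panel, the annotated genes by strand, protein-coding in dark grey and non-coding in light grey, at their distance from the start of ac in kb. CG32816, which spans the region, is not drawn. ac and sc stand above the other genes drawn except ebo, beyond Cyp4g1, which is higher (2241 ± 89.9 and 2044 ± 36.8). Of the 3 members ase has the widest gap between the groups, and Cyp4g1 reaches the level of ase in 1 library labelled ecd-RNAi.

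Of the nearest genes beside the other members, some passed and some did not, where 62.5% of all tested genes were called. Around sens, Poc1 rose by 0.33 and CG10222 by 0.24 on the log2 scale (limma adjusted p = 0.000101 and 0.0155), the latter not after recentring or quantile normalization (adjusted p = 0.0965 and 0.446). Beside neur and 325 bases away, tgo, which encodes the bHLH-PAS partner Tango, fell from 1397 ± 104 to 684.1 ± 64.4 normalized counts, 2.04-fold, while Nmdmc on the far side did not pass (1155 ± 82.8 and 1190 ± 94.4, adjusted p = 0.603). hyx, which overlaps neur without sharing exonic bases, was at 1124 ± 51.1 and 1079 ± 41.2 and did not pass (adjusted p = 0.294); it passed after recentring (-0.15, adjusted p = 0.0115). Next to phyl, Achl did not pass (29.2 ± 8.71 and 17.8 ± 6.54, limma adjusted p = 0.0819), though it did with quantile normalization (adjusted p = 0.0226), and on leaving out control replicate 4 (0.0395) or ecd-RNAi replicate 2 (0.0385). Genes beside sca, among them lncRNA:CR45266 at 10.9 ± 4.37 and 13.8 ± 5.49, were at low levels in both groups.

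Other genes of the pathway were taken from 10 lists by role, drawn up with earlier results of these data known. Of their 90 matched genes other than the 7, 78 were tested, 37 were lower and 23 higher, with a median log2 fold change of -0.13 against 0.00 over all tested genes. Over all tested genes 31.7% were lower and 30.8% higher, so the higher count is near the background. With recentring on the median 39 were lower and 16 higher.

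Among the bHLH factors, only ato (atonal), the proneural gene of chordotonal organs and the eye, was tested of 5 other proneural genes, and it did not pass (15.2 ± 3.60 and 17.0 ± 4.31 normalized counts). Their common partner da (daughterless) was at 2378 ± 47.2 and 2464 ± 90.9 and did not pass (limma adjusted p = 0.251), except with quantile normalization, where it was 0.18 higher (adjusted p = 0.000771). The antagonist emc (extramacrochaetae), an HLH protein without a basic region that ties up proneural factors, fell by 0.37 (adjusted p = 0.000136). The repressor h (hairy), which keeps ac off between bristle rows, rose by 0.14 (adjusted p = 0.0199), a call lost after recentring (adjusted p = 0.389), and on leaving out control replicate 4 (0.0541) or ecd-RNAi replicate 1 (0.0514).

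Of 5 tested factors that act in the precursor beside sens and ase, 3 were lower and 1 higher, with a median of -0.68. The shares over all tested genes were 31.7% lower and 30.8% higher. cpo (couch potato), an RNA-binding protein gene known for its expression in precursors, was at 339.2, 389.9, 332.3 and 314.2 normalized counts in controls and at 122.8, 114.6, 83.6 and 88.6 in libraries labelled ecd-RNAi. The groups were far apart, and cpo fell by 1.75 on the log2 scale (SE 0.13, limma adjusted p = 1.67e-06). peb (pebbled, also hindsight), a zinc finger factor, fell by 1.21, from 295.5 ± 21.1 to 126.8 ± 8.54. chn (charlatan), a zinc finger factor that promotes proneural expression, went the other way in every library, from 2859 ± 220 to 4669 ± 303, 1.63-fold higher (adjusted p = 5.34e-06). nvy (nervy), the remaining called gene and named after its value was seen, fell by 0.28, and qua (quail), an actin-binding protein gene, was at 18.3 ± 8.17 and 10.8 ± 4.64 and did not pass, except with quantile normalization (adjusted p = 0.0426).

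Prepattern factors place the proneural clusters by acting on ac and sc. Of 12 tested, 10 were lower, with a median of -0.70, against 31.7% lower over all tested genes. These counts were the same under every alternative tried, among them recentring, where 3691 of all tested genes were lower. Of the homeobox genes named, mirr fell by 0.99 on the log2 scale. B-H1 fell by 0.96, and ush (u-shaped), whose zinc finger protein binds Pannier, fell by 0.92. In normalized counts mirr went from 2978 ± 156 to 1508 ± 186 normalized counts. Chi (Chip), a cofactor of Pannier and of Apterous, was at 1450 ± 91.4 and 1456 ± 96.8 and did not pass. The 1 gene that rose was wg (wingless), the Wnt ligand of the wing margin, from 1992 ± 91.2 to 3023 ± 354 (log2 fold change 0.60, adjusted p = 7.18e-05), and it was named after its value was seen.

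Of 14 tested Notch signalling genes of lateral inhibition, 5 were lower and 5 higher, with a median of 0.12. Both counts are near the shares of all tested genes, 31.7% lower and 30.8% higher. H (Hairless), the corepressor at Notch targets, fell by 0.53, whereas mib1 (mind bomb), another ubiquitin ligase for Delta, rose 1.63-fold from 2191 ± 102 to 3566 ± 126. The target E(spl)mdelta-HLH, a bHLH repressor, rose 1.66-fold from 286.2 ± 27.4 to 475.1 ± 62.9 (limma adjusted p = 0.000177). kuz, the protease that cleaves Notch, did not pass (adjusted p = 0.0637) but was lower after recentring, with the replicate number as a block and without ecd-RNAi replicate 2 (adjusted p = 0.00669, 0.0495 and 0.00209).

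**Figure D5:**
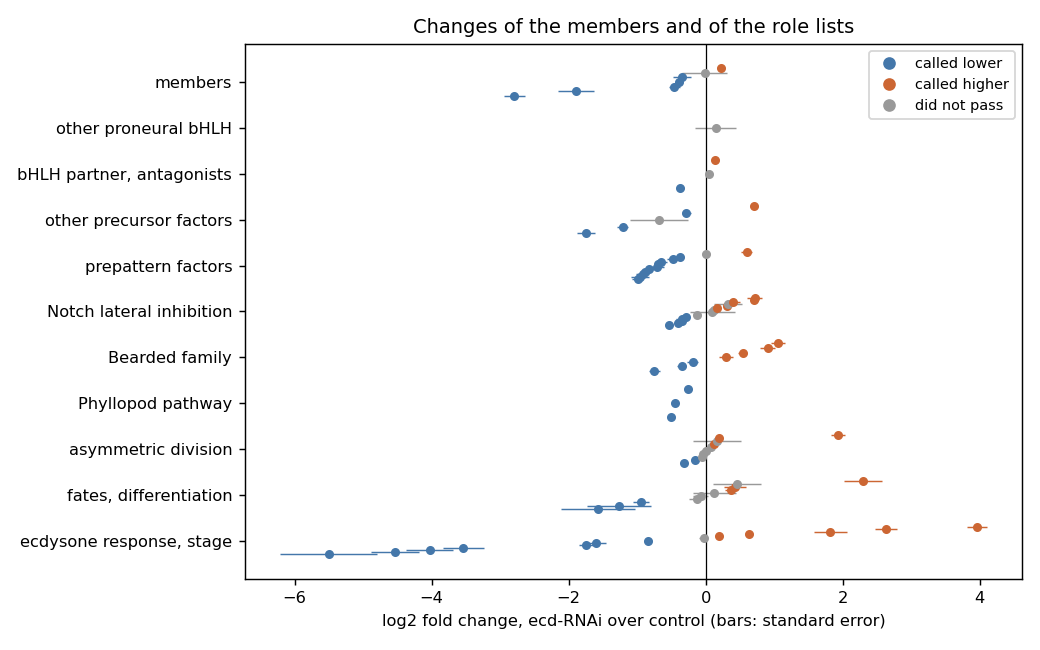
Log2 fold change (ecd-RNAi over control, bars give the standard error) of the 7 members and of the tested genes of the 10 role lists, 1 row per list; blue marks genes called lower, orange higher and grey those that did not pass. The prepattern row lies almost wholly below 0, down to -0.99, while the Notch, Bearded and division rows lie on both sides.

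Proteins of the Bearded family bind Neuralized and block it. Of 7 tested genes, 4 rose (Brd, Tom, Ocho and E(spl)m4-BFM) and 3 fell (E(spl)malpha-BFM, E(spl)m2-BFM and E(spl)m6-BFM). Among all tested genes 30.8% were higher and 31.7% lower. Tom, Ocho, E(spl)malpha-BFM and E(spl)m6-BFM were named after their values were seen. Brd (Bearded) was at 203.8, 179.0, 233.3 and 199.1 normalized counts in controls and at 431.5, 365.6, 445.9 and 454.5 in libraries labelled ecd-RNAi. It was thus higher in all 4 of the latter, 2.08-fold on average (limma adjusted p = 6.65e-06). E(spl)m4-BFM rose 1.90-fold and E(spl)m2-BFM fell by 0.75 on the log2 scale. The calls of Ocho and E(spl)m6-BFM were the weak ones: Ocho was lost with either rescaling, in the authors' deposited table and on leaving out either of 2 control libraries (replicates 1 and 2) or either of 2 labelled ecd-RNAi (replicates 1 and 3). E(spl)m6-BFM was lost in 10 settings, among them the fits without any single library other than control replicate 3. BobA was listed at or near 0.

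Against 31.7% of all tested genes, all 3 tested genes of the Phyllopod pathway were lower. Their changes lie inside the confidence interval of phyl, and whether they differ from it was not tested. sina, the ubiquitin ligase, fell by 0.50 and ttk, its target Tramtrack, by 0.45 on the log2 scale. ebi, an F-box-like protein of the same pathway, fell by 0.25 (limma adjusted p = 8.14e-05).

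The precursor divides asymmetrically, and of 10 tested genes of that division 3 were higher, 2 lower and 5 did not pass. Among all tested genes 30.8% were higher and 31.7% lower. spdo and mira were listed at 0 in all libraries. insc (inscuteable), which orients the spindle in neuroblasts, was at 449.8, 592.0, 530.7 and 444.4 normalized counts in controls and at 1918, 2029, 2047 and 1660 in libraries labelled ecd-RNAi. The groups were far apart, the mean being 3.79-fold higher (limma adjusted p = 1.16e-07). insc shares 359 of its 3887 exonic bases with sktl on the same strand. AP-2alpha, an adaptor that works with Numb, fell by 0.31, and l(2)gl, a cortical polarity gene, rose by 0.19, though not after recentring (adjusted p = 0.0834). brat did not pass (15140 ± 453 and 14630 ± 1030 normalized counts) and was lower after recentring (adjusted p = 0.0388). Leaving out a single library (replicate 1 or 3 of the controls, 2 or 3 of those labelled ecd-RNAi) gave 2 higher genes in place of 3, and leaving out ecd-RNAi replicate 4 gave 4; recentring gave 1.

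Genes of the later cell fates of the organ went both ways, 3 of 10 tested higher and 3 lower, median 0.03. These counts are near the shares of all tested genes, 30.8% higher and 31.7% lower. Poxn, the Pax gene that sets chemosensory against mechanosensory bristles and was named after its value was seen, fell from 235.2 ± 25.8 to 122.3 ± 17.2 normalized counts (log2 fold change -0.94, limma adjusted p = 6.69e-05). sv (shaven, Pax2), active in cells that form the shaft and the sheath, was at 25.4 ± 4.74 and 9.66 ± 5.45, with 1.51 in ecd-RNAi replicate 3, and its call (adjusted p = 0.0267) was lost without control replicate 2, 3 or 4 (adjusted p between 0.0558 and 0.065); it shares 444 exonic bases with Cals on the other strand. ham (hamlet), a zinc finger factor of neuronal identity in the lineage, rose 5.56-fold from 8.04 ± 1.23 to 44.7 ± 13.4, higher in 4 of 4 libraries. With a control mean below the 10 normalized counts asked of a tested gene, ham entered the test only through the libraries labelled ecd-RNAi. The synapse protein gene brp fell by 1.26 (adjusted p = 0.0364), a call lost in 8 settings, 5 of them fits that left out 1 library (replicate 2, 3 or 4 of the controls, 2 or 3 of those labelled ecd-RNAi). In the libraries labelled ecd-RNAi the means of sv (9.66) and brp (9.03) were below 10, so both were tested only through their control libraries. The calls of ham, sv and brp, and the counts of this list, carry that limit. Syt1 and Appl, the other genes that rose, were named after their values were seen, at 272.5 ± 46.5 against 202.4 ± 41.6 and 356.0 ± 22.6 against 275.7 ± 25.8; the call of Syt1 was lost in 8 settings, 5 of them fits that left out 1 library (replicate 2, 3 or 4 of the controls, 2 or 4 of those labelled ecd-RNAi). elav, the general marker of neurons, was at 346.3 ± 45.2 and 329.2 ± 42.7 and did not pass; 2994 of its exonic bases are shared with lncRNA:enrr on the same strand. Without control replicate 2, 3 or 4, 2 genes of the list rose and 1 fell.

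Genes that follow the hormone ecdysone and the stage of the larva moved with the same groups. Precursors form in sequence through the third instar, and all discs were taken on day 7. Of 13 tested genes 7 were lower and 5 higher, with a median of -0.84, beside 31.7% and 30.8% of all tested genes. Hr3, a nuclear receptor induced late in the instar, was at 1328, 1996, 1535 and 712.6 normalized counts in controls and at 112.0, 18.1, 6.01 and 44.5 in libraries labelled ecd-RNAi. Hr3 shares 6071 exonic bases with CG46321 on the same strand. Its groups were far apart, as were those of the repressor gene Blimp-1 (5281 ± 486 and 256.3 ± 134) and of Hr4 (7276 ± 1610 and 489.0 ± 280). Among genes named after their values were seen, chinmo, which marks younger larval stages, rose from 710.5 ± 183 to 10830 ± 1260, and br (broad) fell from 49910 ± 5330 to 14870 ± 1870. Genes that act late, likewise named after their values were seen, also rose: ftz-f1, a nuclear receptor of the prepupa, from 354.2 ± 88.5 to 2160 ± 238 and Eip93F, of pupal stages, from 17.4 ± 4.74 to 63.1 ± 10.5 (limma adjusted p = 3.31e-07 and 7.66e-05). ftz-f1 shares 2521 exonic bases with lncRNA:CR45939 on the same strand. Eip74EF did not pass (2732 ± 254 and 2668 ± 167). The part of stage in the levels of sens, ase and the other genes was not tested.

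Other cells and other regions of the disc also moved with the groups, and their part in these results was not tested. The counts of markers stand beside 31.7% lower and 30.8% higher over all tested genes. The 11 wing disc identity genes were all lower, with summed levels of 85560 to 89100 normalized counts in the control group and 53520 to 56950 in the libraries labelled ecd-RNAi, led by bs (4.72-fold lower between the means), dve and rn. The groups of nub overlapped (log2 fold change -0.12, limma adjusted p = 0.0269). With quantile normalization or the replicate block 10 were lower. The count was also 10 on leaving out replicate 2, 3 or 4 of the controls, or 3 or 4 of those labelled ecd-RNAi. Of 5 adult muscle precursor markers 4 were lower (summed 4210 to 4540 and 2677 to 3154), and of 6 tracheal markers 6 were lower (13580 to 14390 and 6348 to 7634). pio held most of the tracheal sum, at 10400 ± 427 and 5037 ± 500. btl, named after its value was seen, fell least of the 6, by 0.28 on the log2 scale (limma adjusted p = 0.0447). The tracheal count was 5 on leaving out replicate 1 or 4 of the controls, or 2, 3 or 4 of those labelled ecd-RNAi. It was also 5 with the replicate block, without the filter on low values and in the authors' deposited table. Of 6 hemocyte markers 3 were higher and 0 lower (993.4 to 1387 and 1299 to 2705). Leaving out control replicate 4, or replicate 1, 3 or 4 of those labelled ecd-RNAi, gave 2 higher hemocyte markers. Leaving out ecd-RNAi replicate 2 gave 4, and quantile normalization or a minimum mean of 50 normalized counts gave 2. The 6 fat body markers varied within both groups (1047 to 7202 and 605.1 to 5097), with 1 lower, and 0 on leaving out replicate 2, 3 or 4 of the controls or 2 or 3 of those labelled ecd-RNAi. Among 7 markers of the central nervous system 2 were higher and 2 lower (4365 to 4604 and 2588 to 2833), and 1 and 1 on leaving out replicate 2, 3 or 4 of the controls or ecd-RNAi replicate 2. Leaving out ecd-RNAi replicate 3 gave 2 higher and 1 lower, and leaving out ecd-RNAi replicate 4 gave 1 higher and 2 lower. CadN, a cadherin gene named after its value was seen, held most of that sum, at 3629 ± 77.3 and 1739 ± 134. In addition, 3 of 3 tested salivary gland markers were lower (summed over 6 genes, 86.5 to 202.0 and 3.47 to 8.74). These 3, Sgs5, Sgs7 and Sgs8, had means of 0.627, 2.06 and 2.44 normalized counts in the libraries labelled ecd-RNAi. Those means are below the 10 asked of a tested gene, so the 3 entered the test only through their control libraries. Lower was thus close to the only call open to them. No fixed marker of these lists was at 0 in all libraries.

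Across the 8 libraries, the tested genes outside the lists whose log2 values followed sens most closely were cora, bowl, mtgo, tkv and Gug, with Pearson r of 0.999 for cora and 0.998 for the other 4. These values describe mostly the gap between the groups, which all 5 share: 481 genes had an r to sens above 0.98, and tkv, for example, went from 13910 ± 406 to 8252 ± 633 normalized counts. The closest gene to sc was Spase25 (r = 0.993), to ase lolal (0.997), to sca MFS17 (0.995) and to ac Marc (0.960). The closest to phyl was CG13457 (0.943), which shared with phyl its low value in control replicate 1.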

How the data were processed

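Total RNA of wing discs, 2 µg per library, was made into libraries with a stranded kit that removes rRNA, with 4 biological replicates per group per the labels' protocols. The labels disagree on single-end or paired-end reads and on the sequencer. Per the submitters' processing notes the authors worked with kallisto 0.46.1, DESeq2 1.34.0, cutadapt 3.5 and FastQC, and the build was BDGP6; the sources used here give no settings, transcript set or strand option. The authors deposited normalized counts (a signal per gene, never negative and not whole). Their own comparison lists, per the file headers, the mean signal, the log2 fold change, scores (its error and a Wald statistic) and raw and adjusted p-values, kept here as the authors' deposited values. Sequences were not used here.

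Low values lay near steps of 0.835 to 1.20 normalized counts, worth about 1 read, but only 78.1% to 84.8% of values up to 20 steps came within 0.1 of a whole number, so no count model was run. The steps put the depth near 29.7 to 37.5 M reads per library, and a count of 0 to 3 reads cannot be told from absence.

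Genes whose mean reached 10 normalized counts were tested on log2(value + 1), with a pseudocount of 1, by limma 3.58.1 in R 4.3.3 (mean trend, two-sided, all 8 libraries, no covariate), with Benjamini-Hochberg adjustment over all 9380 tested genes; a gene was called at an adjusted p under 0.05. The fit was checked on simulated data, with 50 genes changed at each fold. It recovered 66% of 1.5-fold and 86% of 2-fold changes, and 9 of 182 calls were false. Far fewer genes changed there than were called in the data, so the check does not match their setting. Pair tests used exact permutation in scipy 1.17.1. Folds are ratios of group means, errors SD over 4 libraries. Loci, exon lengths and overlaps come from the Ensembl annotation of BDGP6, 1-based. In this annotation h and Dl are named hry and Delta; 2 further entries of the Bearded list, BobB and BobC, were not analysed here. The members and lists were chosen with earlier results of these data known. Up to 4 genes per list are named: the largest called log2 fold changes and the most abundant gene that did not pass; others are said to be named after their values were seen. Alternatives were other pseudocounts, filters and scalings, each library left out in turn, a replicate block and the authors' table. The gene closest to neur over the libraries is not reported here.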

Additional observations from a re-analysis of the deposited data

Results flagged for a closer look

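In 158 groups of 4 values examined, 10 held 1 library whose distance to its nearest neighbour passed Dixon's 95% critical value as a share of the range of the group, which chance alone gives in about 1 of 20. For phyl these were control replicate 1 (18.6 normalized counts) and ecd-RNAi replicate 3 (16.6), and without either of them its log2 fold change was -0.24 and 0.28. CG13457, the gene most like phyl, was also low in control replicate 1 (6.21). sv was low in ecd-RNAi replicate 3 (1.51) and l(1)sc in ecd-RNAi replicate 2 (1.97, near single reads). Appl and chinmo were high in ecd-RNAi replicate 3 (389.6 and 12720). hyx and bowl were high in ecd-RNAi replicate 1 (1141 and 8888), and tkv was low in control replicate 1 (13300).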

How the results depend on the processing

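The calls of sc, ase, sens and sca held in every alternative that gave them a value, and phyl passed in none; with a minimum mean of 50 normalized counts ase and phyl were not tested. The log2 fold change of sens lay between -2.71 and -2.91 and that of ase between -1.80 and -2.03 with single libraries left out. Other processing moved both further: sens to -2.61 and ase to -1.53 with a pseudocount of 5, and to -3.07 and -2.46 with quantile normalization. For ac the range was -0.28 to -0.46, and the call was lost in 6 of those 8 fits, in the authors' deposited table (-0.34, adjusted p = 0.0533) and with the replicate number as a block (-0.34, adjusted p = 0.0781). neur lost its call after recentring on the median (0.12). The cause was not tested. Called genes numbered 5859, and between 5344 and 6352 over all alternatives. Same-numbered libraries did not deviate together (r between -0.0522 and 0.0531 over 9380 genes), so no pairing by number was detected. A correlation over all genes cannot exclude a pairing that touches few of them. With the block 5679 genes were called, and of the 7 genes only the call of ac changed. The pair tests were not run without single libraries, since 4 against 3 cannot give a p below 0.0571. l(1)sc, near single reads, was too low to test.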

Other observations

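sktl, which encodes a phosphatidylinositol phosphate kinase and shares 359 exonic bases with insc on the same strand, moved against insc. It was at 1348, 1369, 1261 and 1237 normalized counts in controls and at 537.7, 623.8, 714.9 and 845.9 in libraries labelled ecd-RNAi, where insc was 3.79-fold higher. The groups of sktl did not overlap, and it fell by 0.96 on the log2 scale (SE 0.12, limma with Benjamini-Hochberg adjusted p = 4.92e-05). Reads of the shared bases cannot be assigned to either gene from these values, and the gene was named after its overlap with insc was seen.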
